A study of Mus musculus with 4 samples.

Results

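Pitx1 and Sox2 are 2 of the 328 genes on the mouse Xenium panel used here, and they were chosen by name, as the panel's transcription factors of oral epithelium. Xenium is an imaging assay in which probes for a chosen set of genes are read out where they bind in the tissue, so that each transcript has a position and can be given to a cell. Every decoded transcript of Pitx1 and Sox2 with a quality score of at least 20 was counted per cell on all 4 slides, and the counts were described by section, kind of cell and layer of the epithelium. The sections were formalin-fixed, paraffin-embedded and 5 µm thick, and came from Tet-On TRE-Pitx1/Krt5-rtTA mice, in which doxycycline switches on a Pitx1 transgene in cells that use the Krt5 promoter, mostly basal keratinocytes. The groups were dorsal skin of littermates on normal chow (Control) and of mice on doxycycline chow (PITX1+), on a male and a female slide, buccal mucosa of control mice of both sexes on a single slide, and male skin on day 4 after wounding (Control wound and PITX1+ wound). Doxycycline was begun in the resting phase of the hair cycle. The labels give no ages, and whether the Pitx1 probes read the transgene's transcript, the mouse's own, or both is not given in the sources used here.

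PITX1 is a homeodomain transcription factor known from the hindlimb, the pituitary and the oral epithelium. SOX2 is a high mobility group transcription factor known from pluripotent cells, and in adult tissue from the basal layer of oral and oesophageal epithelium, salivary gland, dermal papilla, Merkel cells and peripheral glia. Stratified epithelium renews from a basal layer, marked by Krt5, Krt15 and Trp63, whose daughter cells move outwards as they differentiate.

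The slides held 17 sections: 3 Control, 4 PITX1+, 7 buccal, 1 Control wound and 2 PITX1+ wounds. The labels give conditions per slide and not per section, so each skin section took its condition from its place on the slide. The cell numbers of the 7 unwounded skin sections lay within 0.493% of a listed section total of that condition, the nearest total of the other condition being 32.1% away, and the wounds were assigned by their order. Sex and slide cannot be told apart, nor can tissue and slide for buccal mucosa, and the labels do not say which sections came from separate mice, so the p-values measure the spread between sections, which may be technical. In the study's account of the Xenium images, mice are named for the unwounded PITX1+ skin but not for Control skin or buccal mucosa. Sections held 136365 to 5581930 transcripts in cells, with the fewest in Control skin among the skin sections (474847 to 749248). Buccal 3 had 1 keratinocyte-like cell and enters no comparison of keratinocytes. In Buccal 6, 2599 cells fell in a salivary-like cluster. On the female slide, 79.1% of the calls of negative control probes, which match no mouse gene, lay over nuclei, against 42.7% of the transcripts of all panel genes. Pitx1 and Sox2 lay over nuclei at 79.2% and 81.5% on that slide, at 59.0% and 59.1% on the male slide and at 37.2% and 37.0% on the buccal slide.

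Levels are given as CPM, the transcripts of a gene per 1000000 transcripts of all panel genes in the same cells, and the CPM of an average negative control probe gives the background. In keratinocyte-like cells, Pitx1 stood far above that background in buccal mucosa and in the male sections matched to PITX1+ skin, and near or below it in Control skin. Pitx1 measured 752, 851, 930, 738, 1269 and 777 CPM in Buccal 1, 2, 4, 5, 6 and 7 (886 ± 201, SD, n = 6 sections), where a control probe read 1.69 to 4.56 CPM. In the male PITX1+ sections Pitx1 measured 1095 and 863 CPM, from 1900 and 1169 transcripts, against control probes of 12.5 and 13.0. Both lie within the buccal range, PITX1+ male 1 only through Buccal 6, without which the range was 738 to 930 CPM. Per cell, the male PITX1+ sections held a mean of 0.0952 and 0.0976 Pitx1 transcripts, against 0.196 to 0.230 in the buccal sections. Their cells were shallower, with a median of 73 and 102 transcripts of all genes against 128 to 217. Control male 1 held 2 Pitx1 transcripts in 3900 keratinocyte-like cells, 14.3 CPM, below its control probe level of 59.7 CPM. The female Control sections gave 61.2 and 53.3 CPM against control probes of 50.4 and 46.1, and the female PITX1+ sections 45.2 and 78.8 CPM against 22.2 and 15.3. The female sections matched to PITX1+ skin thus overlapped the female Control sections in Pitx1, although they lay above the mean of their own control probes, whereas both male PITX1+ sections lay above the Control male section. Over all cells, the female PITX1+ sections held 184 and 353 Pitx1 transcripts, against a mean of 123 and 122 for a control probe and a highest control probe of 555 and 410, and at most 3 panel genes read lower than Pitx1 in them. The study verified ectopic PITX1 in PITX1+ skin by immunofluorescence and qPCR. In keratinocyte-like cells, the keratin gene Krt16 measured 354 and 312 CPM in the female Control and 6900 and 13638 CPM in the female PITX1+ sections.

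In keratinocyte-like cells, Sox2 was high in the buccal sections and low in every skin section. It measured 3629, 4537, 5155, 3763, 5665 and 3461 CPM in Buccal 1, 2, 4, 5, 6 and 7 (4368 ± 901, SD, n = 6). Control male 1 gave 107 CPM, and the female Control sections 247 and 278. The male PITX1+ sections gave 28.2 and 46.5 CPM, and the female PITX1+ sections 99.1 and 110. Every buccal section lay above every skin section, and in each slide the PITX1+ sections lay below the Control sections. Within basal keratinocyte-like cells, PITX1+ male 1 and 2 gave 20.8 and 130 CPM against 90.1 in Control male 1. Within differentiated ones they gave 56.8 and 23.7 against 53.1 CPM, each value from 3 to 17 transcripts. So the male order did not hold within kinds, while the female order in CPM held in both. Per 100 cells, female basal Sox2 was 1.18 and 0.71 in Control and 1.09 and 1.13 in PITX1+, so no order held there. In female differentiated cells it was 1.94 and 2.40 against 0.79 and 0.64. Over all keratinocyte-like cells, Sox2 per cell was 0.0149 and 0.0153 against 0.0100 and 0.0111 on the female slide. On the male slide it was 0.00385 against 0.00246 and 0.00526, so the order did not hold. The control probe level was lower in the PITX1+ sections too, at 12.5 to 22.2 CPM against 46.1 to 59.7 CPM in Control, and its part in the difference was not tested.

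**Figure D1:**
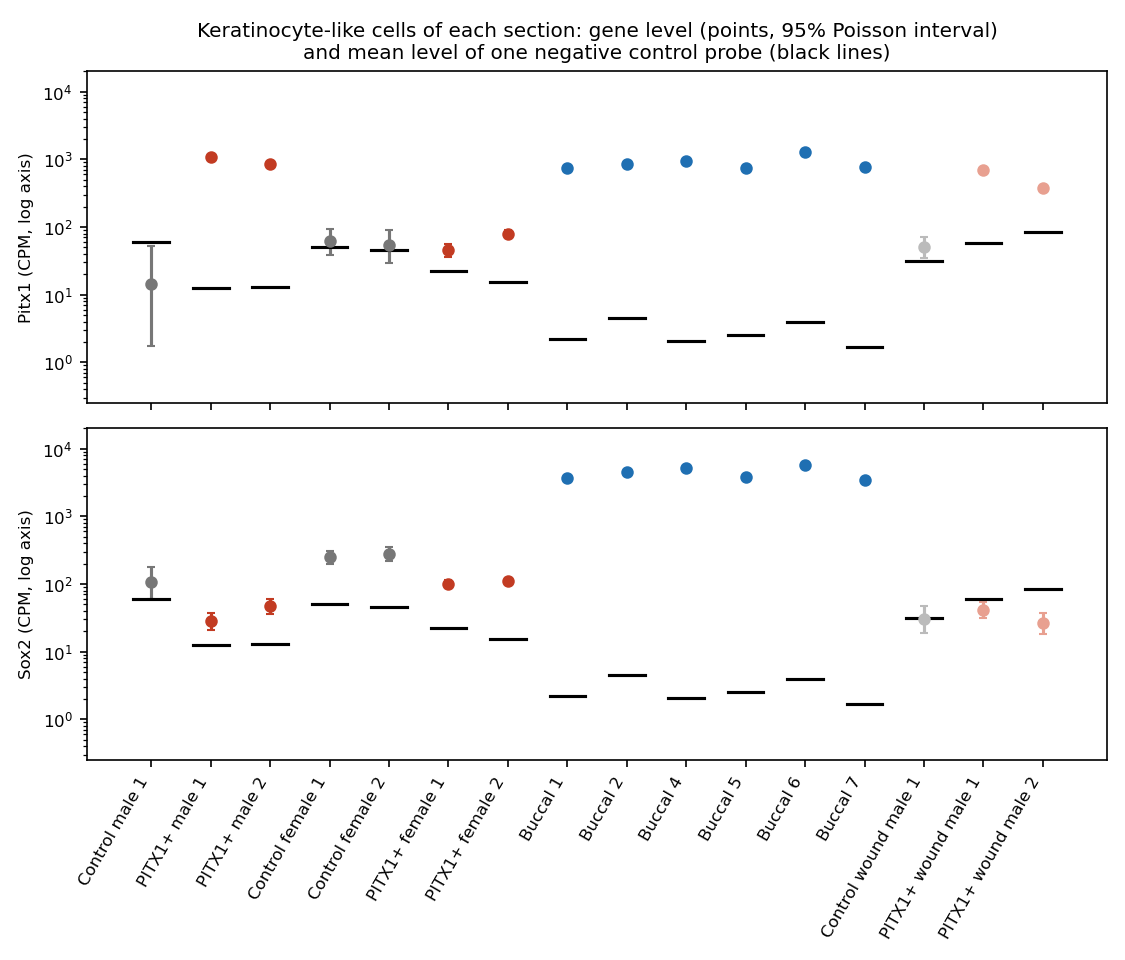
CPM of Pitx1 (top) and Sox2 (bottom) in keratinocyte-like cells of each section on a log axis. Points carry the 95% exact Poisson interval of the count, which covers counting error only, and black lines mark the mean level of a negative control probe. Pitx1 is high in the 6 buccal sections (738 to 1269) and in the 2 male PITX1+ sections (1095 and 863), and Sox2 in the buccal sections alone (3461 to 5665).

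Sections matched to PITX1+ skin were tested against Control sections on counts summed per section over keratinocyte-like cells. The test was edgeR's quasi-likelihood test, with slide as covariate and Benjamini-Hochberg adjustment over all 328 genes. The sums pool basal, differentiated and hair follicle keratinocyte-like cells, and the part of their mix in the changes was not tested. Pitx1 did not pass, with a log2 fold change of 1.74 ± 0.99 (SE), adjusted p = 0.196, and leaving out Control male 1 took it to 0.42. Sox2 fell by 1.30 ± 0.30 on the log2 scale in the same edgeR test, adjusted p = 0.0187. In CPM of the pooled keratinocyte-like cells it was lower in PITX1+ on both slides, but per cell on the female slide only. That call was lost without Control male 1 (adjusted p = 0.0518), Control female 2 (0.0690) or PITX1+ female 2 (0.0714). In this comparison 113 of 328 genes, 34.5%, were called, 50 (15.2%) higher and 63 (19.2%) lower. By edgeR's interaction term, the fitted male change in Pitx1 exceeded the female one by 5.38 ± 0.85 on the log2 scale. This is given as a value, since the male slide has 1 Control section, with 2 Pitx1 transcripts. Over all genes the term called 18, 5.49%, 6 (1.83%) higher and 12 (3.66%) lower, and these calls rest on the same Control section. With library size in place of TMM, a scaling of libraries by their shared genes, the Pitx1 value was 5.97. The median of all genes then moved from -0.11 to 0.49. For Sox2 the interaction term with TMM was -0.82. On the male slide alone, with 1 Control and 2 PITX1+ sections, the fitted log2 fold change was 6.01 for Pitx1 and -1.59 for Sox2. These are given as values, since the Control side has no replicate and rests for Pitx1 on 2 transcripts, below the control probe level. The size of that change and of the difference between slides is therefore not fixed by these counts.

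Both genes were higher in buccal than in Control keratinocyte-like cells. Pitx1 differed by 5.68 ± 0.37 on the log2 scale (edgeR, adjusted p = 2.69e-07) and Sox2 by 5.75 ± 0.32 (edgeR, adjusted p = 6.28e-08), each higher in 6 of 6 buccal sections than in the 3 Control sections. Of 322 genes tested, 232 or 72% were called, 101 (31.4%) higher and 131 (40.7%) lower. The size depends on the scaling: with library size in place of TMM the median of all genes moved from -0.30 to -1.67, the calls became 50 higher and 202 lower (78.3% in all), and Pitx1 and Sox2 stood at 4.27 and 4.34. Relative to the median of all genes, both stayed at about the same height, and the calls held. Pitx1 in the Control sections was near or below the level of a control probe, so that the size of its fold, unlike its direction, is set by background on the Control side. With Control male 1 as the sole Control section, the fold change was 6.42 for Sox2, and none is given for Pitx1, of which that section held 2 transcripts.

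Against the sections matched to PITX1+ skin, buccal keratinocyte-like cells held more Sox2 by 7.04 ± 0.51 on the log2 scale, adjusted p = 3.35e-07 with edgeR, and the 6 buccal and 4 PITX1+ sections did not overlap. Of 322 genes, 200 or 62.1% were called, 74 (23%) higher and 126 (39.1%) lower. For Pitx1 the fold change was 1.94 ± 0.73 (edgeR, adjusted p = 0.0359), but the call was lost with library size scaling (0.77, adjusted p = 0.340), under which the median of all genes moved from -0.52 to -1.61 and the calls became 38 higher and 196 lower (72.7% in all). With the male PITX1+ sections alone, edgeR gave Pitx1 0.89 ± 0.22, adjusted p = 0.00471, and with library size scaling -0.15 ± 0.28, adjusted p = 0.647, so the direction of that difference turns with the scaling, which moved the median of all genes in this comparison about as far, from -0.47 to -1.50. Among basal keratinocyte-like cells only, it was 1.34, adjusted p = 0.139 with edgeR. Leaving out a section kept the Pitx1 call only without PITX1+ male 1, PITX1+ male 2 or Buccal 1, with values from 1.42 to 2.45 over all 10. Sox2 kept its call in each of these settings.

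Other transcription factors of stratified epithelium on the panel were compared in the same way. Of 8 tested (Trp63, Klf4, Grhl3, Dlx3, Barx2, Sox9, Lhx2 and Rora), 1 rose, 1 fell and 6 were not called in PITX1+ against Control keratinocyte-like cells, with a median log2 fold change of -0.23 beside -0.04 over all genes, of which 15.2% were called higher and 19.2% lower. Dlx3, a homeodomain factor of differentiating keratinocytes and hair, rose by 2.61 (edgeR, adjusted p = 0.0136), and Rora, a nuclear receptor, fell by 1.15 (adjusted p = 0.0450). The study reported a larger share of hair follicle keratinocytes of the growing phase in PITX1+ skin, with Dlx3 among their markers. Trp63, the factor that maintains the basal layer, stood at -0.03 (adjusted p = 0.914). In buccal against Control cells, 5 were called higher, 2 lower and 1 was not called, with a median of 1.63 beside -0.30 over all genes, of which 31.4% were called higher and 40.7% lower. With library size scaling 4 of the 8 were higher and 3 lower, with a median of 0.37 beside -1.67 over all genes, of which 15.5% were called higher and 62.7% lower. Klf4 and Grhl3, both factors of barrier formation, differed by 1.77 and 2.73 with edgeR and TMM, and by 0.46 and 1.49 with library size. The follicle factors Sox9 and Lhx2 fell by 3.97 and 6.82, and were lower with library size too, at -5.21 and -8.05. Trp63 was called lower only with library size, at -1.48. Against the PITX1+ sections, 4 of the 8 were higher and 2 lower in buccal cells, with a median of 0.85 beside -0.52 over all genes, of which 23% were called higher and 39.1% lower. With library size scaling 3 were higher and 4 lower, with a median of -0.32 beside -1.61 over all genes, of which 11.8% were called higher and 60.9% lower.

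A list of 13 genes of oral or activated keratinocytes held the keratins Krt4, Krt6a, Krt16 and Krt17, the cornified envelope genes Sprr1a, Sprr1b, Sprr2a3, Sprr2d and Sprr3, the transglutaminase gene Tgm3, the desmosomal cadherin Dsc2, and Crabp2 and Aldh1a3, genes of retinoic acid binding and synthesis. Krt4, Crabp2, Krt6a, Sprr2a3 and Dsc2 were reported by the study as induced with PITX1. Over keratinocyte differentiation in its single-cell data, the study found Tgm3 specific to buccal mucosa, with or without PITX1. In its Xenium data of wounds, it gave Tgm3 among the genes of activated keratinocyte clusters. The list was set with earlier results of these data known, so the share of it called is a description. In PITX1+ against Control keratinocyte-like cells, 7 of 13 rose, 0 fell and 6 were not called. The median log2 fold change was 2.63 beside -0.04 over all genes, of which 15.2% were called higher and 19.2% lower. With library size scaling 9 were called higher and 0 lower, Crabp2 and Sprr2d being added, beside 12.5% higher over all genes (35.4% called in all). Krt4, a keratin of mucosal suprabasal cells, rose by 3.13 ± 0.66 (edgeR, adjusted p = 0.0143), Dsc2 by 3.67 ± 0.39 (adjusted p = 0.00208), and Krt16, a keratin of activated epidermis, by 4.66 ± 0.59 (adjusted p = 0.00335). Aldh1a3, Tgm3, Sprr1a and Sprr1b rose by 1.91, 2.83, 2.63 and 4.07. Those not called were Krt6a at 1.79, Krt17 at 0.60, Crabp2 at 1.21, Sprr2a3 at 2.31, Sprr2d at 3.17 and Sprr3 at -0.26, with edgeR adjusted p from 0.0860 to 0.721. For Krt6a and Sprr2a3 that is an average of unlike slides. Krt6a measured 947 and 1100 CPM in the female Control and 8144 and 13366 CPM in the female PITX1+ sections, against 17374 CPM in Control male 1 and 17062 and 11747 CPM in the male PITX1+ sections. Sprr2a3 measured 1199 and 1298 against 19277 and 27422 CPM on the female slide, and 1745 against 1324 and 1928 CPM on the male one. By edgeR's interaction term, the male change less the female one was -4.25 for Krt6a and -4.94 for Sprr2a3 on the log2 scale. These are given as values, since the male slide has 1 Control section. In buccal against Control cells 11 were called higher, Aldh1a3 was lower and Krt17 was not called, with a median of 5.58 beside -0.30 and a background of 31.4% higher and 40.7% lower, and with library size 10 were higher and 2 lower, with a median of 4.26 beside -1.67 and a background of 15.5% higher and 62.7% lower. Krt4 differed by 11.92 and Dsc2 by 6.60 with TMM, and by 10.51 and 5.23 with library size. Against the PITX1+ sections, 8 were higher and 2 lower in buccal cells, with a median of 2.25 beside -0.52 and a background of 23% higher and 39.1% lower, and with library size 6 were higher and 2 lower, with a median of 1.09 beside -1.61 and a background of 11.8% higher and 60.9% lower. The 2 lower were Aldh1a3 and Krt17 under both scalings. Of the 3 ligands of the EGF receptor, Areg and Tgfa rose by 2.23 and 1.24 in PITX1+ skin (edgeR, adjusted p = 0.00863 and 0.0170) and Hbegf was not called. In buccal against Control cells, Hbegf differed by 3.17 and Tgfa by 1.38, both called, and Areg was not called. With library size Hbegf stood at 1.91 and was called, whereas Tgfa stood at 0.02 and was not (edgeR, adjusted p = 0.943), so that the difference in Tgfa rests on the scaling. Against the PITX1+ sections, Hbegf was higher by 2.08 in buccal cells, Areg lower by a log2 change of -1.46, and Tgfa was not called. With library size these were 0.95 for Hbegf, -2.52 for Areg and -1.11 for Tgfa, all called. The comparisons share the Control or the PITX1+ sections.

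The kinds of cell that held the transcripts differed by gene and tissue. In Buccal 1, 2, 4, 5 and 7, keratinocyte-like cells held 87.3% to 93.4% of the Pitx1 transcripts and 92.2% to 97.2% of the Sox2 transcripts of all clustered cells. In the male PITX1+ sections they held 93.0% and 93.7% of Pitx1, but 34.0% and 20.2% of Sox2. Unnamed cells, left out of the orders that follow, held 2112 ± 1716 CPM of Sox2 and 291 ± 175 CPM of Pitx1 in buccal sections without Buccal 6 (SD, n = 6). Buccal cells named for hair follicle are left out too, with 5 sections, none of them Buccal 6. They held 7769 ± 1823 CPM of Sox2 and 1007 ± 629 CPM of Pitx1 (SD). Basal keratinocyte-like cells without Buccal 6 held 7582 and 1076 CPM (n = 5). In buccal sections, the order of mean Sox2 levels among named kinds with at least 6 sections was basal keratinocyte-like (7851 ± 1382 CPM, SD, n = 6), differentiated keratinocyte-like (3393 ± 653, n = 6), neural-like (1724 ± 765, n = 7), immune-like (713 ± 935), fibroblast-like (418 ± 448), muscle-like (291 ± 499) and endothelial-like (199 ± 241, each n = 7). The neighbours from immune-like to endothelial-like do not differ beyond their spread. These means rest largely on Buccal 6, without which they were 372 for immune-like, 251 for fibroblast-like, 103 for muscle-like and 109 for endothelial-like cells (n = 6), so the order of the last pair turned. For Pitx1 the order was basal (1172 ± 299 CPM) and differentiated keratinocyte-like (806 ± 164, both n = 6), then muscle-like (180 ± 87.7), fibroblast-like (109 ± 63.0), endothelial-like (91.6 ± 30.6), immune-like (76.6 ± 69.3) and neural-like (48.1 ± 84.7, each n = 7), and the neighbours from muscle-like on lie within their spread.

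Within each buccal section, keratinocyte-like cells were compared with fibroblast-like cells. Sox2 in the fibroblast-like cells ran from 150 to 304 CPM in Buccal 1, 2, 4, 5 and 7, and was 1421 CPM in Buccal 6. Sox2 was higher in the keratinocyte-like cells by 3.79 ± 0.38 (SE) on the scale of log2(CPM + 10), in 6 of 6 sections, and Pitx1 by 2.83 ± 0.13, also in 6 of 6 (exact two-sided sign-flip permutation test over sections, p = 0.03125 for both, the smallest that 6 sections allow). The Sox2 difference was 1.99 in Buccal 6. Against fibroblast-like cells over 50 µm from the epithelium, the mean difference was 5.19 for Sox2 (SD 1.03) and 3.83 for Pitx1 (SD 1.68). Both means were above those against all fibroblast-like cells.

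**Figure D2:**
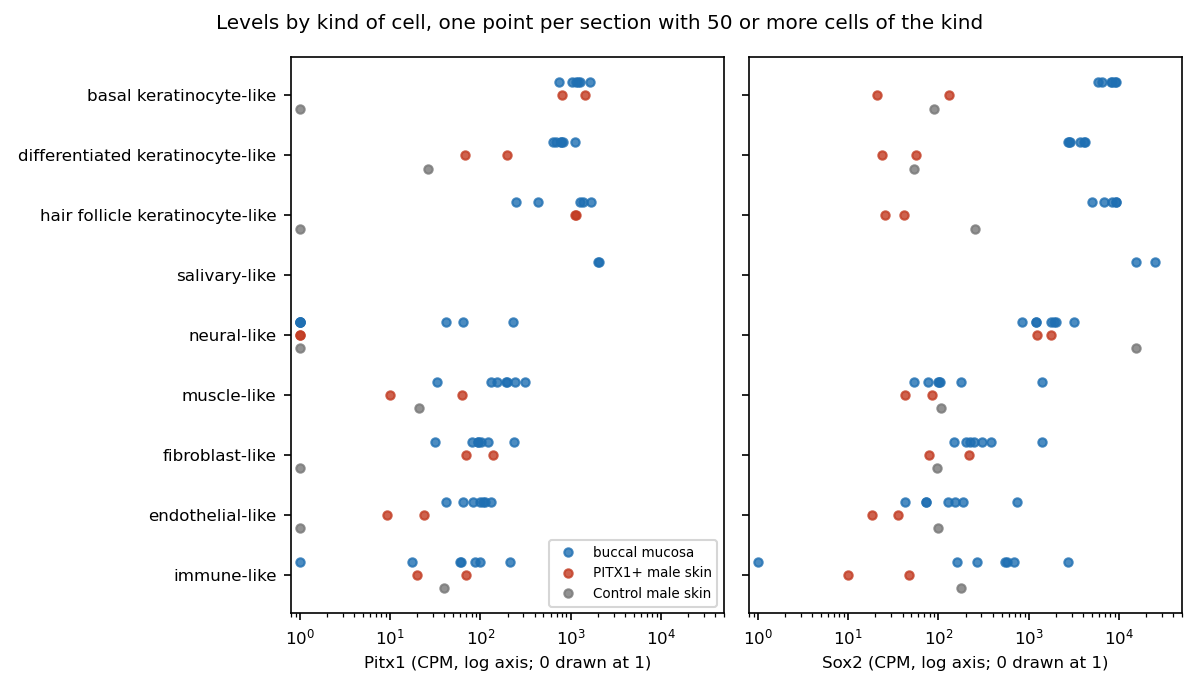
CPM of Pitx1 and Sox2 by kind of cell on a log scale, where each point is a section with at least 50 cells of the kind and colours mark buccal mucosa, male PITX1+ skin and male Control skin, with 0 drawn at 1. Salivary-like cells hold the highest level of both genes (2073 for Pitx1 and 24896 for Sox2), Pitx1 of the male PITX1+ sections in basal and hair follicle keratinocyte-like cells (810 to 1432) lies among the buccal keratinocyte-like values, and Sox2 of the skin sections is highest in neural-like cells.

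Levels by distance from the epithelium were also read in the cells around it, leaving out neural-like and immune-like cells. In buccal fibroblast-, endothelial- and muscle-like cells, Sox2 measured 528 to 889 CPM within 15 µm of an epithelial cell in Buccal 1, 2, 4, 5 and 7. Over 50 µm away it measured 29.9 to 119 CPM in these sections. In Buccal 6 the values were 5340 and 171 CPM. Pitx1 in the same cells of Buccal 1, 2, 4, 5 and 7 measured 226, 111, 202, 89.8 and 188 CPM near, and 106, 201, 144, 113 and 152 CPM far. In Buccal 6 it was 834 and 128 CPM. It was thus lower far from the epithelium in Buccal 1, 4, 6 and 7, and higher in Buccal 2 and 5. The near values rest on 2 to 15 transcripts each. Part of the far Pitx1 lay in a muscle-like cluster led by Des, with 186 Pitx1 transcripts in 11015 cells and 50.2 to 258 CPM over 7 sections, where a control probe read at most 14.8 CPM in muscle-like cells. In the male PITX1+ sections Pitx1 fell from 269 and 188 CPM near the epithelium to 38.2 and 12.2 CPM far from it. How many of the near transcripts were assigned across a cell border was not tested.

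In the layers of the buccal epithelium, the mean share of transcripts that were Sox2 or Pitx1 was highest at 10 to 20 µm and fell farther out. The mean number per cell was highest at 30 to 40 µm. The keratinocyte-like cells were grouped by the distance of their centre from the nearest centre of a cell that is not epithelial. Mean Sox2 over sections was 7221, 7411, 5871, 3874, 1853 and 813 CPM at up to 10, 20, 30, 40, 60 and over 60 µm. Mean Pitx1 was 998, 1273, 1162, 836, 518 and 433 CPM at the same distances. The last distance rests on 5 sections and the others on 6. Over the same range, the transcripts of all genes per cell rose from 115 to 624. Per 100 cells, Pitx1 therefore went from 11.4 to 18.1, 25.5, 28.6, 25.4 and 27.0 transcripts, and Sox2 from 81.5 to 107, 129, 132, 91.6 and 50.5. For comparison, Trp63 fell from 18365 to 205 CPM and from 212 to 12.6 transcripts per 100 cells.

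Far cells (over 30 µm) were set against near cells (up to 15 µm) within each section. Sox2 measured 5921, 8745, 7809, 7448, 8448 and 5814 CPM near and 2075, 2253, 2813, 1544, 2930 and 1980 CPM far in Buccal 1, 2, 4, 5, 6 and 7. Every far value lay below every near value, and the mean difference was -1.71 ± 0.13 (SE) on the log2(CPM + 10) scale (exact two-sided sign-flip permutation test, p = 0.03125, n = 6). Pitx1 measured 965, 1233, 1264, 1202, 1363 and 783 CPM near and 519, 620, 618, 453, 761 and 636 CPM far. In CPM, each section was lower far than near, and the mean difference was -0.90 ± 0.14 (exact permutation test, p = 0.03125, n = 6). For Pitx1 this did not hold with transcripts over nuclei alone, where the difference was -0.06 (exact permutation p = 0.6875, n = 6), nor with layers within 10 and over 20 µm, -0.39 (exact permutation p = 0.125, n = 6). Sox2 over nuclei alone differed by -0.95 (exact permutation p = 0.03125, n = 6). Per 100 cells, Pitx1 was higher far than near in each section, at 16.9 to 36.5 against 11.0 to 15.7 transcripts. Sox2 per 100 cells was higher far in Buccal 1, 2, 4 and 7 and lower far in Buccal 5 and 6. The transcripts of all genes per cell averaged 113 to 163 near and 222 to 573 far. Their part in the CPM differences was not tested.

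**Figure D3:**
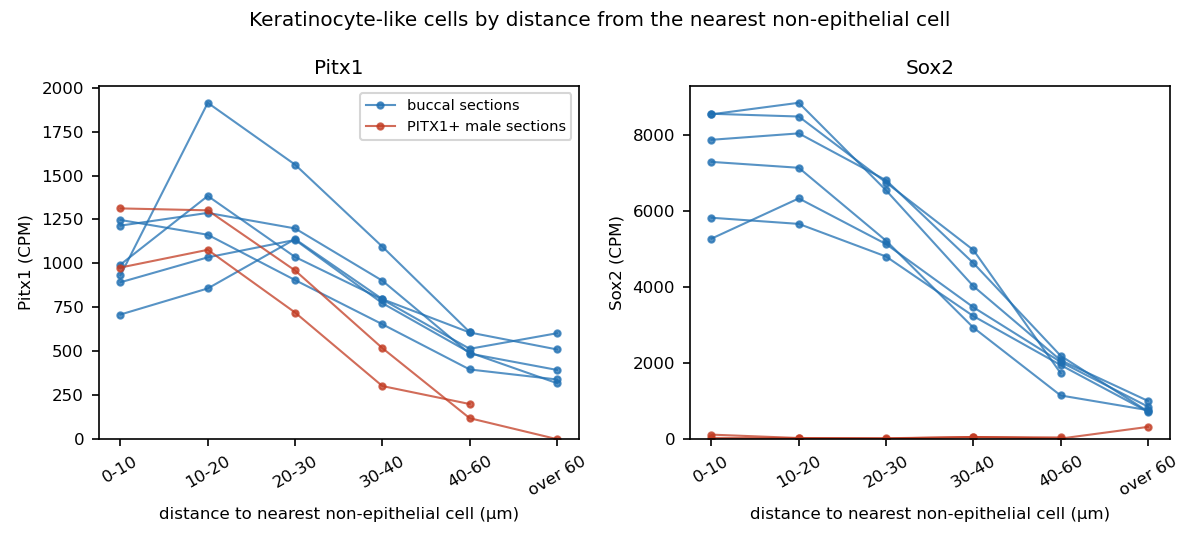
CPM of Pitx1 (left) and Sox2 (right) in keratinocyte-like cells by distance in µm from the nearest cell outside the epithelium, with a line for each buccal and male PITX1+ section of at least 50 cells. In buccal epithelium the means go from 7221 to 813 for Sox2 and from 998 to 433 for Pitx1, and male PITX1+ Pitx1 goes from 1145 at up to 10 µm to 159 at 40 to 60 µm; the last PITX1+ point rests on 202 cells of 1 section.

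In the male sections matched to PITX1+ skin, Pitx1 was lower in differentiated than in basal or hair follicle keratinocyte-like cells, and most of its transcripts lay in the last. Hair follicle keratinocyte-like cells held 1375 and 1043 of the 1900 and 1169 Pitx1 transcripts, at 1158 and 1125 CPM. Of these 2418 transcripts, 436 lay in the cycling cluster led by Top2a, which also held 417 of the 588 buccal cells named for hair follicle, so that its name is not borne out there. Pitx1 measured 1432 and 810 CPM in basal and 199 and 67.6 CPM in differentiated keratinocyte-like cells, a ratio of 7.20 and 12.0. The PITX1+ wounds gave ratios of 6.20 and 5.99. In buccal sections the ratio ran from 0.93 (Buccal 7) to 1.86 (Buccal 5). The ratio was above the buccal range in other skin sections too, at 4.11 and 3.16 in the female Control sections, 2.68 and 3.32 in the female PITX1+ sections and 2.87 in the Control wound, from 6 to 53 basal and 4 to 35 differentiated transcripts, and Control male 1 had 0 Pitx1 transcripts in basal cells. The difference between tissues was not tested. By distance, male PITX1+ Pitx1 was 1145, 1190, 840, 410 and 159 CPM at up to 10, 20, 30, 40 and 60 µm, while the transcripts of all genes per cell stayed between 87.9 and 104. Sox2 had basal to differentiated ratios of 2.05 to 2.82 in the buccal sections. All these are ratios of CPM. Per 100 cells, buccal Pitx1 was lower in basal (9.97 to 18.5) than in differentiated cells (22.8 to 34.7) in each section. Buccal Sox2 was 79.3 to 103 in basal and 85.7 to 131 in differentiated cells, higher in basal cells in Buccal 6 alone. Male PITX1+ Pitx1 stayed higher in basal cells, at 11.4 and 5.81 against 1.42 and 0.73.

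Since the transgene is driven through the Krt5 promoter, keratinocyte-like cells of at least 20 transcripts were also grouped by the share of their transcripts that were Krt5. In the male PITX1+ sections, mean Pitx1 per 1000000 transcripts other than Krt5 was 149 in cells without Krt5, 294 at up to 2%, 1099 at 2 to 5%, 1389 at 5 to 10% and 1063 above 10%. In buccal cells the same groups held 748, 741, 1453, 1437 and 1148. By this share, cells without Krt5 thus held about as much Pitx1 as those with up to 2% in buccal mucosa, and less in the male PITX1+ sections. Per 100 cells, buccal cells without Krt5 held less Pitx1 in each section, 13.4 to 24.7 against 27.0 to 38.9 transcripts. A cell of few transcripts cannot fall in the group of up to 2%, so these groups differ in depth. Buccal Sox2 was 2677 and 3081 in the 2 lowest groups and 7861, 8666 and 8735 in the others.

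**Figure D4:**
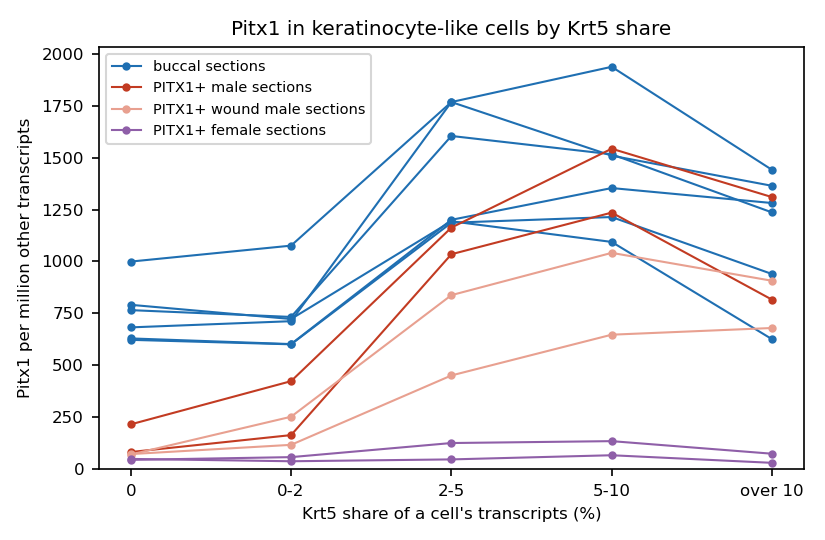
Pitx1 per 1000000 other transcripts in keratinocyte-like cells grouped by the share of Krt5 among their transcripts, with a line for each buccal, male PITX1+, PITX1+ wound and female PITX1+ section. The male PITX1+ sections go from a mean of 149 in cells without Krt5 to 1389 at 5 to 10%, the buccal sections from 748 to 1437, and the means of the female PITX1+ sections lie between 46.7 and 101.

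Among clusters of the male PITX1+ keratinocyte-like cells, Pitx1 was highest in a hair follicle cluster whose leading genes include Shh and Wnt5a, genes of the growing hair germ and matrix, at 1606 and 1638 CPM. A cluster led by the follicle stem cell gene Lgr5 gave 1233 and 1519 CPM. Cycling cells led by Top2a gave 1039 and 1144 CPM. A basal cluster led by Fcgbp, Clca3a2 and Krt15 was lower, at 306 and 487 CPM, beside 1432 and 810 CPM over all basal keratinocyte-like cells. The lowest were clusters of end stages, led by the hair shaft genes Dsg4 and Krtap17-1 (68.1 and 117 CPM) and by the epidermal genes Krt77 and Flg2 (55.0 and 67.9 CPM). In buccal sections, the basal cluster led by Mt3 and Col17a1 held 741 to 1657 CPM of Pitx1 and 5876 to 9130 CPM of Sox2, and the suprabasal cluster led by Mt4, Chil3 and Gsdmc 1050 to 1807 and 4914 to 7630 CPM. The outermost cluster, led by Krt78, Il1f6 and Il1f8, held 378 to 603 and 1160 to 1643 CPM. A few buccal cells, 588 in all, fell into clusters named for hair follicle, mostly the one led by Top2a, although buccal mucosa has no hair.

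**Figure D5:**
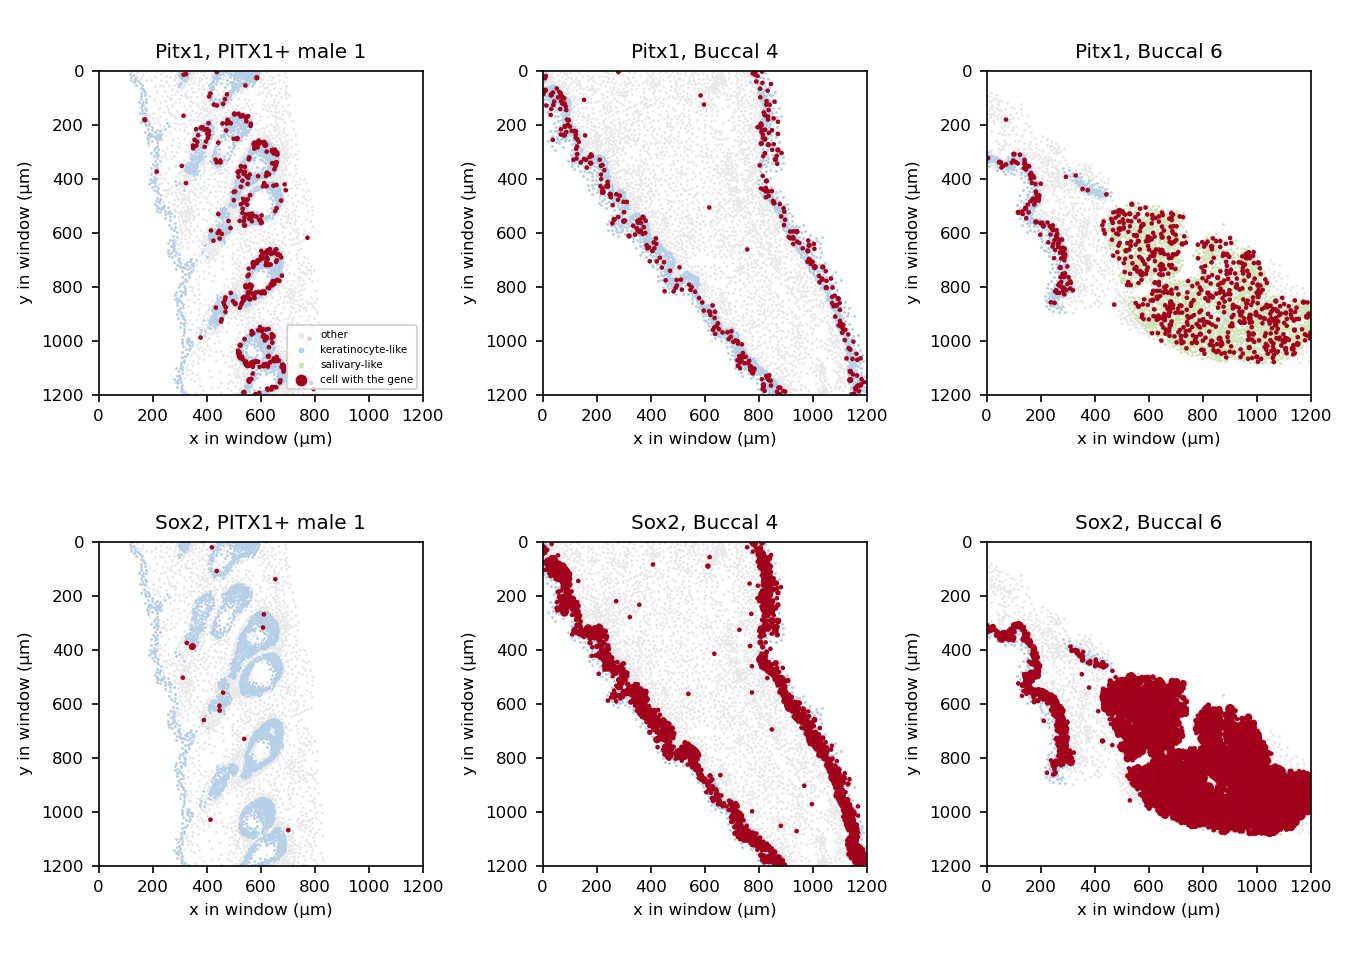
Cell positions in µm in windows of 1200 µm of PITX1+ male 1, Buccal 4 and Buccal 6, with keratinocyte-like cells in pale blue, salivary-like cells in pale green and cells that held Pitx1 (top) or Sox2 (bottom) in dark red. In that order, 320, 329 and 663 cells held Pitx1 and 16, 1179 and 2621 held Sox2.

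Salivary-like cells held the highest levels of both genes. Their cluster was led by Krt8, Wfdc18 and Krt18, of which Krt8 and Krt18 are keratins of simple and glandular epithelium, and it held 2599 cells of Buccal 6 and 152 of Buccal 4. Sox2 reached 24896 CPM in Buccal 6, from 7506 transcripts, with a transcript in 86.7% of these cells and up to 15 in a cell, and 15494 CPM in Buccal 4. Pitx1 was 2073 and 1997 CPM. These cells held 85.0% of the Sox2 and 68.7% of the Pitx1 transcripts of Buccal 6. The level was alike in the salivary-like cells of Buccal 6 with and without Krt7 (24830 and 24928 CPM of Sox2) and in those with 3 or more transcripts of the contractile genes Cnn1, Acta2 and Myh11 (22859 CPM) and the others (25571 CPM). Sox2 transcripts read per Pitx1 transcript were 12.0 and 7.76 in salivary-like cells of Buccal 6 and 4, 5.57 to 7.96 in basal and 3.47 to 4.97 in differentiated keratinocyte-like cells of the 6 sections. The probes of the genes differ, so only the order of these ratios between kinds of cell can be read. With 2 sections, the salivary-like cells were not tested.

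Single buccal keratinocyte-like cells mostly held no Pitx1 or a single transcript. A Pitx1 transcript was seen in 16.8% to 19.4% of them and a Sox2 transcript in 49.2% to 59.8%, at a median of 128 to 217 transcripts of all genes per cell, and the most in a cell were 5 and 10. In male PITX1+ keratinocyte-like cells, 8.27% and 8.32% held Pitx1, at a median of 73 and 102 transcripts. Fewer than 0.4% held a Pitx1 transcript in each of the 3 Control sections (0.0513%, 0.369% and 0.294%), at a median of 26, 47 and 42 transcripts. In the female PITX1+ sections 0.451% and 0.785% held it, at a median of 76 and 72 transcripts. To ask whether the genes were seen in the same cells, each buccal cell was thinned to 100 transcripts, leaving out shallower cells. In differentiated keratinocyte-like cells, 38.8% to 54.7% of the cells with Pitx1 also held Sox2, against 28.2% to 35.2% of the others, and the first share was higher in each of the 6 sections. This kind pools a suprabasal cluster higher in both genes and an outermost cluster lower in both. Thinning evens depth but not layer, and the part of the pooling in the difference was not tested. In basal cells the shares were 43.9% to 60.9% and 41.9% to 61.5%, higher in 3 of 6 sections. Without thinning they were 54.5% to 70.2% and 47.8% to 57.2% in basal cells.

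Skin held Sox2 in kinds of cell other than keratinocytes. Neural-like cells, led by Kcna1, Ncmap and Drp2, the latter pair genes of myelinating Schwann cells, held more Sox2 than fibroblast-like cells by 3.21 ± 0.40 (SE) on the log2(CPM + 10) scale, in 17 of 17 sections (exact two-sided sign-flip permutation test over 17 sections, p = 1.53e-05, the smallest they allow). The mean difference was 2.31 in the 7 buccal sections and 3.83 in the 10 skin sections. Levels ran from 422 to 15321 CPM, and most sections had few transcripts. Control male 1 was the highest, with 41 transcripts in 88 cells, of which 18 lay in 4 cells. The other 9 skin sections held 2 to 63 transcripts each in these cells. Pitx1 was read 9 times in all in the neural-like cells of the 17 sections.

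Fibroblast-like cells that held at least 2 of the dermal papilla genes Crabp1, Wif1, Bmp4 and Igfbp3 held more Sox2 than the others in some sections. Sox2 was 868 against 52.2 CPM in PITX1+ male 2, from 121 and 29 transcripts, 136 against 58.9 in PITX1+ male 1, 1032 against 170 in PITX1+ female 2, 544 against 255 in PITX1+ female 1 and 978 against 62.0 in the Control wound. In Control male 1 it was 529 against 71.2 CPM, from 4 and 9 transcripts. Control female 1 had 3 transcripts in such cells (402 against 223 CPM), and Control female 2 had 0 transcripts in its 44 such cells. In the 2 PITX1+ wounds the order was the other way, 56.9 against 73.0 and 23.8 against 45.4 CPM. Cells with all 3 Merkel genes, Atoh1, Krt8 and Krt18, numbered 0 to 13 in a skin section, too few to give a level. In cells with at least 2 of them, Sox2 was 1371 CPM in the Control wound, from 16 transcripts in 69 cells, against 135 CPM in the rest. The other skin sections did not show such a gap. In the PITX1+ wounds it was 273 against 105 and 55.5 against 53.8 CPM, in the female PITX1+ sections 216 against 176 and 269 against 149 CPM, and in PITX1+ male 2 193 against 108 CPM, from 5 transcripts. PITX1+ male 1 had 0 Sox2 transcripts in 392 such cells, against 52.5 CPM in the rest, and the Control sections had 0 to 2 transcripts in such cells.

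On day 4 after wounding, Pitx1 was again high in keratinocyte-like cells of the sections assigned to PITX1+. The 2 PITX1+ wounds measured 697 CPM (95% exact Poisson interval 652 to 744) and 383 CPM (348 to 420), and the Control wound 50.7 CPM (35.3 to 70.5), from 897, 447 and 35 transcripts, where control probes read 58.9, 84.5 and 31.2 CPM. Over all cells, the PITX1+ wounds held 1132 and 731 Pitx1 transcripts, below their highest control probe at 1390 and 1845. The wounds were not compared by a test, as the Control wound has no replicate. Sox2 was 41.2, 26.5 and 30.4 CPM in the same order, at or below the control probe level in each. Basal keratinocyte-like cells held 1018 and 607 CPM of Pitx1 in the PITX1+ wounds, from 576 and 322 transcripts, and 125 CPM in the Control wound, from 17, where control probes read 11.1 to 12.5 CPM. A cluster of 4098 cells led by Arg1, Plet1 and Csf3 in the PITX1+ wounds, which the markers did not name, held 184 to 348 CPM of Pitx1.

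The panel genes whose levels were most like those of the 2 were found by Pearson's r of log2(CPM + 10) over sums of a kind of cell in a section with at least 10000 transcripts. The sums of a section share its slide and depth, so r is a description. Over 138 sums, Dsc2 (r = 0.68), Wnt4 (0.67), Krt4 (0.62), Arf6 (0.59) and Dsg3 (0.53) were most like Pitx1, and Mt3 (0.65), Sprr3 (0.57), Krt4 (0.54), Ptprz1 (0.53) and Tgm3 (0.50) most like Sox2. Over the 48 buccal sums, Sdc1 (0.84), Dnajb1 (0.83), Arf6 (0.82), Dsc2 (0.81) and Krt23 (0.78) followed Pitx1, and Krt17 (0.83), Dsc2 (0.82), Erbb2 (0.81), Ephb3 (0.78) and Krt23 (0.78) followed Sox2. The 2 genes had an r of 0.43 with each other over all sums and 0.69 over the buccal ones.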

How the data were processed

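For every slide the authors deposited the instrument's output: a table of transcripts with positions and a quality score per transcript, and a table of cells with counts of transcripts, without normalization. The segmentation settings and software version are not given in the sources used here. Outlines of cells were not used. Counting the transcripts that scored 20 or more in each cell gave the deposited count in 100% of cells, and CPM, counts of a gene per 1000000 panel transcripts, were computed from them.

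Sections were found by joining cells within 100 µm (200 µm on the wounded slide), keeping groups of at least 2000 cells, and ordered by position. Section conditions rest on this order and on cell numbers of at least 3 genes, not on the labels. Cells of at least 10 transcripts were clustered by k-means (45 clusters, 40 principal components, scikit-learn 1.9.0) without Pitx1, Sox2 and 24 genes of the compared lists. Clusters were named, with the ending -like, from marker lists by their 10 leading genes, and 7.00% of cells stayed unnamed. The naming rule was set after the clusters were seen. No doublets were removed. Sums over at least 50 cells of a section were tested by edgeR's quasi-likelihood test (edgeR 4.0.16, R 4.3.3; TMM after filterByExpr, Benjamini-Hochberg over all genes tested, threshold 0.05), and differences of log2(CPM + 10) within sections with exact sign-flip permutation tests (scipy 1.17.1, numpy 2.4.6, Python 3.11.15). Both were tested on simulated data. Intervals of counts are 95% exact Poisson intervals and cover counting error only.

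The genes named are Pitx1, Sox2, the compared lists, and the 5 genes most like each of the 2. Genes that lead a cluster are named for it, and 1 basal cluster is not reported here. Pitx1 and Sox2, the lists and the tests were chosen with earlier results of these data known. The alternatives were DESeq2 1.42.0, library size scaling, no gene filter, transcripts over nuclei or of any quality, at least 20 transcripts a cell, 30 clusters, all cells, no slide covariate, other pseudocounts and layers, and leaving out sections. Library size scaling of the lists, and comparisons on the male slide, of basal cells, on stromal distance, or on a subset of sections were added after seeing the data.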

Additional observations from a re-analysis of the deposited data

Results flagged for a closer look

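Of 50 groups of 4 to 10 sections, 11 had a section standing apart from the rest by Dixon's criterion, which chance gives in about 1 in 20 groups. Buccal 6, the section with 2599 salivary-like cells, was that section in 8 of them. Its Sox2 level over all cells was 14256 CPM, against 205 to 3874 CPM in the other buccal sections. Sox2 in its other kinds of cell was also the highest, at 733 CPM in endothelial-like, 1421 in fibroblast-like, 2758 in immune-like and 1419 in muscle-like cells, and the difference between its keratinocyte-like and fibroblast-like cells in Sox2 was 1.99 on the log2 scale. Pitx1 was 1269 CPM in its keratinocyte-like cells and 1112 CPM in the differentiated ones. Sox2 in its fibroblast-, endothelial- and muscle-like cells together was 5340 CPM within 15 µm of epithelium and 171 CPM over 50 µm away. The part of transcripts assigned across cell borders in these values was not tested.

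Sox2 in basal keratinocyte-like cells of PITX1+ male 1 was 20.8 CPM, from 7 transcripts, the lowest of the 4 PITX1+ sections. Pitx1 in neural-like cells was 231 CPM in Buccal 2 and 184 CPM in PITX1+ female 1, where 1 Pitx1 transcript was read, and most of the other sections had none there.

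The change of Pitx1 with the transgene differed between the male and the female slide by 5.38 on the log2 scale (edgeR interaction term). That of Krt6a and Sprr2a3 did too, by -4.25 and -4.94. All of these are given as values only, since the Control side of the male slide has no replicate. On the female slide negative control probes lay over nuclei at 79.1%, as Pitx1 did, and their part was not tested. The wounds, which entered no test of Pitx1, held it at 697 and 383 CPM in keratinocyte-like cells of the sections assigned to PITX1+, against 50.7 CPM in the Control wound.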

How the results depend on the processing

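Of 270 alternative values of 16 results, 219 kept direction and side of the threshold, 42 were weaker, 1 stronger, 7 counts moved and 1 reversed. That was Pitx1 in buccal against PITX1+ cells, at -0.15 with the male PITX1+ sections alone and library size scaling (0.89 with TMM), where the median of all genes moved from -0.47 to -1.50, so that Pitx1 kept about its place among the genes. The count of genes called in PITX1+ against Control was 113, and 193 with DESeq2, 68 over all cells, 31 without the slide covariate and 49 on the male slide. It ran from 43 to 131 when a section was left out, with 53 without Control female 1, 46 without Control female 2 and 43 without PITX1+ female 2. On the male slide, where Control is 1 section, Sox2 was -1.59. Sox2 there lost its call over all cells (-1.39) and without the slide covariate (-1.40). It ran from -1.47 to -1.02 without a section, its edgeR adjusted p from 0.0218 to 0.0714. The call was lost without Control male 1, Control female 2 or PITX1+ female 2. Pitx1 was 6.01 on the male slide, where Control is 1 section with 2 Pitx1 transcripts, so that the 1 stronger value rests on the spread of the PITX1+ sections, and it ran from 0.42 to 2.57 without a section, lowest without Control male 1. In buccal against PITX1+ cells Pitx1 lost its call with library size scaling (0.77), over all cells (1.64) and in basal cells (1.34), and ran from 1.42 to 2.45 without a section (edgeR, adjusted p 0.0214 to 0.0648), keeping the call without PITX1+ male 1, PITX1+ male 2 or Buccal 1 and losing it without any other. Far against near Pitx1 was -0.063 over nuclei and -0.39 with layers within 10 and over 20 µm. The cause was not tested. Without a section, 5 sections remain and the smallest exact permutation p is 0.0625, so the layer differences (-1.02 to -0.80 for Pitx1, -1.76 to -1.60 for Sox2) and the differences from fibroblast-like cells (2.76 to 2.92 and 3.66 to 4.15) could not pass. The buccal against Control differences kept their calls (5.53 to 6.01 and 5.66 to 5.95), as did Sox2 against PITX1+ (6.70 to 7.32) and in neural-like cells (2.96 to 3.34). Counts of genes called ran from 211 to 248 and from 185 to 210 there.

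Sections could not be paired between groups because each group in the labels is a single slide, so the number 1 in their titles pairs none. Slide was a covariate of PITX1+ against Control, and kinds of cell and layers were compared within sections. Low counts limit the skin values: Control keratinocyte-like cells held 2, 23 and 14 Pitx1 and 15, 93 and 73 Sox2 transcripts. Over all cells the Pitx1 counts of the female PITX1+ sections and of the PITX1+ wounds lay below their highest negative control probe.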

Other observations

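An immune-like cluster led by Icos, Foxp3 and Cd3g, genes of T cells, held Sox2 in 2 of the 3 wounds and in other sections. There were 69 Sox2 transcripts in 452 such cells of the Control wound, 2757 CPM and 25.8% of the section's Sox2, and 160 in 1346 cells of the first PITX1+ wound, 2330 CPM and 38.9%. The second PITX1+ wound had 3 in 802 cells. A negative control probe read 19.1 to 39.3 CPM in these cells of the wounds, and 91.6 to 217 CPM on the female slide. In unwounded skin it held 60 Sox2 transcripts in PITX1+ female 1, 748 CPM and 9.76% of the section's Sox2, 18 in Control female 1 (988 CPM) and 18 in PITX1+ female 2 (383 CPM), and 0 or 1 in the other 4 sections. In 6 of the buccal sections 17 to 57 such cells held 6 to 9 transcripts each, 1148 to 6637 CPM, and Buccal 3 held 0. The cells with Sox2 in the wounds held a median of 74.5, 65 and 41 transcripts of all genes, against 40.5, 40 and 35 over the cluster.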
